A study of Mus musculus with 12 samples.

Results

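Glucose transport and glycogen metabolism are described here through 9 genes, taken by symbol from the array annotation and measured in all 12 samples. They are the glucose transporters Slc2a1, Slc2a3 and Slc2a4, the glycogen-building enzymes Ugp2, Gys1 and Gbe1, the glycogen phosphorylases Pygb and Pygl, and the regulator Ppp1r3c. Each had exactly 1 probe set that matched a single gene, and the 9 genes are a small set among the 19938 genes measured.

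Mouse embryonic fibroblasts, cultured connective tissue cells that can be turned into fat cells, came from C57BL6 embryos at embryonic day 14. D1D2KO cells lack both DGAT enzymes, the acyltransferases Dgat1 and Dgat2 that make the last step of triacylglycerol synthesis, and WT cells carry both. D1D2KO differentiated and WT differentiated cells had received 1 µM dexamethasone, 500 µM isobutylmethylxanthine, 5 µg/ml insulin and 15 µM troglitazone after confluency, then insulin and troglitazone, then plain medium until harvest. D1D2KO undifferentiated and WT undifferentiated cells were kept in medium with serum alone. Each of the 4 groups had 3 biological replicates. The labels give neither the embryo behind each culture nor the harvest day, and troglitazone, an agonist of the fat cell regulator PPARgamma, was part of the mixture that both differentiated groups received. All values are log2 array signals, so a difference of 1 is a doubling of the signal, and signals of different genes are not compared with each other.

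Cells take up glucose through facilitative transporters of the Slc2a (GLUT) family. Fat and muscle cells hold GLUT4, the product of Slc2a4, in vesicles that insulin sends to the cell surface. Glucose that is phosphorylated and turned into UDP-glucose can be stored as glycogen, a branched polymer that phosphorylases take apart again. Fat cells keep a small glycogen store, and several of these genes, among them Slc2a1, Gys1, Gbe1 and Ppp1r3c, are known to be induced in low oxygen.

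The arrays were alike in scale. Their median log2 signals lay between 5.61 and 5.69, their lower quartiles between 4.1 and 4.26, and their upper quartiles between 7.19 and 7.37. Pearson correlations over genes were 0.9933 to 0.9974 between arrays of 1 group and 0.9514 to 0.9953 between arrays of different groups, and 0 pairs of arrays were identical. The lowest signal of any of the 9 genes was 5.20, above the lower quartile of every array. Dgat1 was at 38.2% of its WT signal in D1D2KO differentiated cells and at 39.4% in D1D2KO undifferentiated cells, and Dgat2 at 31.4% and 72% (limma, Benjamini-Hochberg adjusted p = 3.59e-07, 6.98e-07, 3.53e-07 and 0.0345). The Dgat2 difference between undifferentiated groups missed the threshold when any 1 undifferentiated array was left out. Whether these probe sets lie in the deleted stretches is not given in the sources used here. All 11 measured adipocyte markers rose with differentiation in both genotypes, with a median log2 difference of 4.65 in D1D2KO cells and 4.28 in WT cells, and of 10 fibroblast markers 9 fell in D1D2KO cells and 8 in WT cells. These fibroblast markers still averaged 10.46 to 10.58 in D1D2KO differentiated and 10.86 to 10.87 in WT differentiated cells, against 11.36 to 11.41 in the undifferentiated samples. Of 9 macrophage markers 8 fell in each genotype. Beside these marker counts, 15.4% of all genes rose and 21.2% fell with differentiation in D1D2KO cells. In WT cells 14.7% of all genes rose and 19.4% fell. Skeletal muscle markers, which bear on GLUT4 and on muscle glycogen genes, averaged 5.45 to 5.67 on the log2 scale in D1D2KO differentiated, 5.5 to 5.56 in WT differentiated, 5.64 to 5.7 in D1D2KO undifferentiated and 5.43 to 5.53 in WT undifferentiated cells.

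With differentiation the same 8 genes of the set passed, in the same directions, in both genotypes. Gbe1, Pygl, Slc2a4, Gys1, Ppp1r3c, Slc2a1 and Ugp2 rose, Pygb fell, and Slc2a3 did not pass the test. A gene passed when its Benjamini-Hochberg adjusted p from limma's two-sided test, taken over all 19938 genes, was under 0.05. In D1D2KO cells 7 of 9 genes rose and 1 fell, where 15.4% of all genes rose and 21.2% fell. In WT cells 7 of 9 rose and 1 fell as well, where 14.7% of all genes rose and 19.4% fell. The median log2 difference over the 9 genes was 2.53 in D1D2KO cells and 1.76 in WT cells, against medians of 0.006 and 0.015 over all genes. These 2 medians fall on different genes. Taken gene by gene, the D1D2KO change minus the WT change had a median of 0.35, and 1 of the 9 passed. Since the arrays measured whole cultures, a change in the share of cells that became fat cells and a change of RNA per cell cannot be told apart. Neural and glial markers fell too, 4 of 7 in D1D2KO cells and 5 of 7 in WT cells. Their mean log2 signal was 5.33 to 5.41 in D1D2KO differentiated and 5.31 to 5.43 in WT differentiated samples, against 6.03 to 6.06 in D1D2KO undifferentiated and 5.95 to 6.01 in WT undifferentiated samples. The part that the changing adipocyte, fibroblast, macrophage and neural markers have in these differences was not tested.

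**Figure D1:**
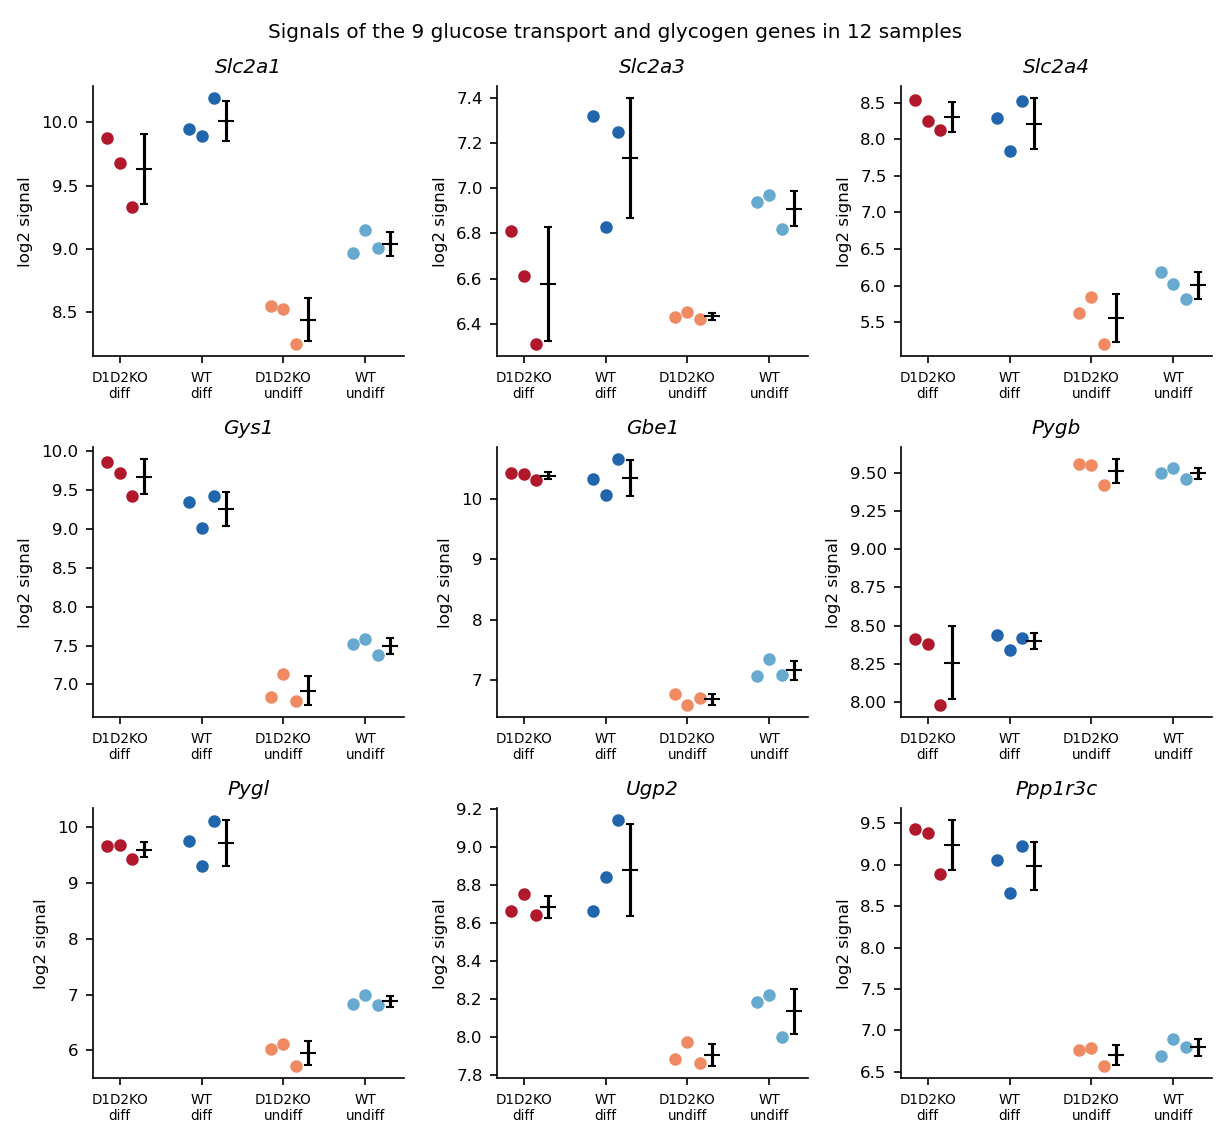
Log2 signal (y axis) of each of the 9 genes in the 12 samples, in 4 groups along the x axis, with 3 dots per group for replicates 1 to 3 and a bar for the mean ± SD. In 7 panels both differentiated groups sit above both undifferentiated groups, in the Pygb panel they sit below, and in the Slc2a3 panel the states overlap.

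Promoter sequences of 4 genes are shown because they set the phosphorylase that rose with differentiation (Pygl) beside the one that fell (Pygb), and the synthase (Gys1) beside the glycogen-targeting subunit that rose with it (Ppp1r3c). They are the RefSeq promoters on GRCm38.p6, 250 bases before to 50 bases after the annotated start, written 5′ to 3′ on the gene's strand. Capitals mark matches to 3 motifs searched on both strands: the hypoxia response core, ACGTG or GCGTG, the E-box CACGTG, which contains ACGTG, and the nuclear receptor half-site AGGTCA.
Pygl (chr12:70227634-70227933, minus strand): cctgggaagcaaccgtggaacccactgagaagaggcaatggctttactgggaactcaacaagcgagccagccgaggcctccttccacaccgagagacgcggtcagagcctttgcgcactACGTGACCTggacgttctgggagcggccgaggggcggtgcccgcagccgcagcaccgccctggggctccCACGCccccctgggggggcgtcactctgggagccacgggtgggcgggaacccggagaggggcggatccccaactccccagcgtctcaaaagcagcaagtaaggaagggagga
Pygb (chr2:150786546-150786845, plus strand): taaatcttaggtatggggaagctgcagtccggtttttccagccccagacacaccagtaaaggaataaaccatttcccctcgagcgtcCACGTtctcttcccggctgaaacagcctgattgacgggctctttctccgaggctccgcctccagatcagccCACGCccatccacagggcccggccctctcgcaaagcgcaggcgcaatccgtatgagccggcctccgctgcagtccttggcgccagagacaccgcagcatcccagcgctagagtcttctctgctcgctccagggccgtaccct
Gys1 (chr7:45434589-45434888, plus strand): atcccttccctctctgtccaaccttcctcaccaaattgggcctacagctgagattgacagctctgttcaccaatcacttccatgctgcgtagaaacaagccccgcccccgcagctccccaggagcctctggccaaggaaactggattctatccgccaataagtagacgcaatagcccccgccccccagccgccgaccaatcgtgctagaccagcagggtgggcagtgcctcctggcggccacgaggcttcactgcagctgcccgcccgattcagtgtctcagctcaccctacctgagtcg
Ppp1r3c (chr19:36736555-36736854, minus strand): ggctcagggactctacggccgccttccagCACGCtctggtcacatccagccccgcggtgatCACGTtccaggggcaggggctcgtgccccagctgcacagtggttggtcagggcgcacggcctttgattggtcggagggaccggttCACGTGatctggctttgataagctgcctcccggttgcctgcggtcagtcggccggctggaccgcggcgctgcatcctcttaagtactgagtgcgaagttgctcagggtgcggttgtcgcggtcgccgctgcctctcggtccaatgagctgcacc
The Pygl window held 2 cores, whose first bases lie at -131 and -62 from the start, and 1 half-site that overlaps the core at -131. The Pygb window also held 2 cores, at -163 and -92, so the phosphorylase that rose and the one that fell do not differ in this count. No core, E-box or half-site lies in the Gys1 window. Ppp1r3c had 4 core matches, of which the pair at -104 and -103 are the 2 strands of its 1 E-box. Among all 32851 promoters in the table, 43.8% held a core, 7.15% an E-box and 16.3% a half-site. Promoters were found for 7 of the 9 genes, and 5 of these 7 held a core, Slc2a1, Pygb, Pygl, Ppp1r3c and 1 of the 2 Ugp2 promoters. Gbe1, which had the highest log2 difference of the set in both genotypes, had none.

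Among the transporters, Slc2a4 changed most. It encodes GLUT4, the insulin-responsive transporter of fat and muscle. Its log2 signals were 8.54, 8.25 and 8.13 in D1D2KO differentiated cells and 5.63, 5.85 and 5.20 in D1D2KO undifferentiated cells. WT differentiated cells had 8.29, 7.84 and 8.52, and WT undifferentiated cells 6.18, 6.02 and 5.81. Every differentiated sample lay far above every undifferentiated one, and the genotypes overlapped in both states. The differentiation difference was 2.75 ± 0.17 (SE) in D1D2KO cells, or 6.71-fold, and 2.21 ± 0.17 in WT cells, or 4.64-fold (limma, adjusted p = 1.1e-09 and 2.59e-08). Slc2a4 did not pass between genotypes, with a D1D2KO minus WT difference of 0.09 (95% interval -0.28 to 0.46) in differentiated cells and -0.44 (-0.81 to -0.08) in undifferentiated cells (adjusted p = 0.744 and 0.115).

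Slc2a1 encodes GLUT1, the transporter of basal uptake in most cultured cells. Its signals were 9.88, 9.68 and 9.33 in D1D2KO differentiated cells, against 9.95, 9.89 and 10.19 in WT differentiated cells. Undifferentiated D1D2KO cells had 8.55, 8.53 and 8.25, against 8.97, 9.15 and 9.01 in undifferentiated WT cells. The groups fell into 4 separate levels without overlap, WT differentiated highest, then D1D2KO differentiated, WT undifferentiated and D1D2KO undifferentiated. Separate groups were common, here and for the genes below. Of all 19938 genes, 7837 had no overlap between the undifferentiated genotypes and 6161 had none between the differentiated ones. Between the states, 9599 genes had no overlap in D1D2KO cells and 8752 had none in WT cells. Slc2a1 rose 2.28-fold with differentiation in D1D2KO cells and 1.96-fold in WT cells (limma, adjusted p = 7.56e-07 and 1.12e-05). In undifferentiated D1D2KO cells it fell to 65.8% of WT, a log2 difference of -0.60 ± 0.13 (adjusted p = 0.0107). The gap between differentiated groups, -0.38 ± 0.13 or 76.6% of WT, narrowly missed the threshold (adjusted p = 0.054), and passed without D1D2KO differentiated replicate 1 (-0.51, adjusted p = 0.0234).

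Slc2a3 encodes GLUT3, a transporter of high glucose affinity best known from neurons. D1D2KO differentiated cells had log2 signals of 6.81, 6.61 and 6.31, against 7.32, 6.83 and 7.25 in WT differentiated cells. For undifferentiated cells the signals were 6.43, 6.45 and 6.42 in D1D2KO and 6.94, 6.97 and 6.82 in WT. Unlike the other transporters of the set, it overlapped between the 2 states of each genotype, while in either state the highest D1D2KO signal lay below the lowest WT signal. It fell to 67.8% of WT in D1D2KO differentiated cells (log2 difference -0.56 ± 0.13, limma, adjusted p = 0.00926) and to 71.5% of WT in D1D2KO undifferentiated cells (-0.48 ± 0.13, adjusted p = 0.0315). The differentiation difference was 0.15 (95% interval -0.12 to 0.42) in D1D2KO cells and 0.22 (-0.04 to 0.49) in WT cells (adjusted p = 0.416 and 0.195). It passed in WT cells without WT differentiated replicate 2 (0.38, adjusted p = 0.0196), the array lowest in 8 of the 9 genes in its group.

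Of the glycogen-building enzymes, the branching enzyme Gbe1 had the largest change. Its signals were 10.42, 10.40 and 10.31 in D1D2KO differentiated cells and 6.77, 6.59 and 6.70 in D1D2KO undifferentiated cells. WT differentiated cells had 10.33, 10.06 and 10.65, and WT undifferentiated cells 7.07, 7.35 and 7.08. The differentiated groups reached overlapping levels. The undifferentiated groups did not overlap, D1D2KO being the lower, a separation found in either direction for 7837 of all 19938 genes. Gbe1 rose 12.9-fold in D1D2KO cells and 9.06-fold in WT cells (log2 3.69 ± 0.12 and 3.18 ± 0.12, limma, adjusted p = 2.87e-13 and 2.82e-12). In undifferentiated D1D2KO cells it was at 71.8% of WT (-0.48 ± 0.12, adjusted p = 0.0274), whereas the difference between differentiated groups was 0.03 ± 0.12 (adjusted p = 0.873).

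Gys1, the glycogen synthase of muscle and most other tissues, was the gene of the set whose response differed between genotypes. D1D2KO differentiated cells had log2 signals of 9.86, 9.72 and 9.42, against 9.34, 9.01 and 9.42 in WT differentiated cells. In the undifferentiated state the signals were 6.84, 7.13 and 6.79 in D1D2KO cells and 7.52, 7.58 and 7.38 in WT cells. D1D2KO cells were thus the higher group after differentiation, where D1D2KO replicate 3 and WT replicate 3 met at 9.42, and the lower group without overlap before it. In undifferentiated D1D2KO cells it fell to 67.2% of WT (-0.57 ± 0.13, limma, adjusted p = 0.0148). The gene rose 6.72-fold in D1D2KO cells and 3.40-fold in WT cells (limma, adjusted p = 2.42e-11 and 9.56e-09). This difference in response, 0.98 ± 0.18 on the log2 scale (95% interval 0.60 to 1.37), passed the test (adjusted p = 0.0103), and Gys1 was the single gene of the 9 for which it did, where 0.747% of all genes passed in that direction. It kept passing without any 1 sample, with values from 0.86 to 1.11 and adjusted p from 0.0053 to 0.0352. Of the other 8 genes, Pygl (0.81), Slc2a4 (0.53), Gbe1 (0.51) and Ppp1r3c (0.35) had the larger differences in response, those of Slc2a1, Ugp2, Slc2a3 and Pygb lay between -0.15 and 0.22, and none of the 8 passed.

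Ugp2 makes UDP-glucose, the activated sugar that glycogen synthase uses. Its signals were 8.66, 8.75 and 8.64 in D1D2KO differentiated cells, against 8.66, 8.84 and 9.14 in WT differentiated cells. Undifferentiated cultures had 7.88, 7.97 and 7.86 in D1D2KO cells, against 8.18, 8.22 and 8.0 in WT cells. Both differentiated groups lay above both undifferentiated groups, and the step was small beside that of Gbe1. Differentiation raised it 1.72-fold in D1D2KO cells and 1.68-fold in WT cells (limma, adjusted p = 9.89e-06 and 2.22e-05). The undifferentiated genotypes did not overlap, D1D2KO being lower. Such separation, in either direction, was found for 7837 of all 19938 genes. The Ugp2 difference of -0.23 (95% interval -0.45 to -0.01) did not pass (limma, adjusted p = 0.162).

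The 2 phosphorylases, which release glucose from glycogen as glucose 1-phosphate, went opposite ways. Pygl, known as the liver form, had log2 signals of 9.67, 9.69 and 9.44 in D1D2KO differentiated cells and 6.03, 6.12 and 5.72 in D1D2KO undifferentiated cells. WT differentiated cells had 9.75, 9.30 and 10.11, and WT undifferentiated cells 6.83, 7.0 and 6.82. Pygl was thus at an overlapping level in both differentiated groups, and lowest in D1D2KO undifferentiated cells, without overlap with WT. It rose 12.5-fold in D1D2KO cells and 7.15-fold in WT cells (log2 3.64 ± 0.16 and 2.84 ± 0.16, limma, adjusted p = 8.74e-12 and 3.25e-10). In undifferentiated D1D2KO cells it was at 52.6% of WT, the largest genotype difference of the set (-0.93 ± 0.16, adjusted p = 0.00239). Between differentiated groups the difference was -0.12 (95% interval -0.45 to 0.21, adjusted p = 0.622). The difference in response was 0.81 (95% interval 0.34 to 1.28) and did not pass (adjusted p = 0.0908), but did without WT differentiated replicate 3, the highest WT sample (1.00, adjusted p = 0.0120).

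Pygb, known as the brain form, had signals of 8.41, 8.38 and 7.98 in D1D2KO differentiated cells and 9.56, 9.55 and 9.42 in D1D2KO undifferentiated cells. WT differentiated cells had 8.44, 8.34 and 8.42, and WT undifferentiated cells 9.50, 9.53 and 9.46. All 6 undifferentiated samples lay above all 6 differentiated ones, and the genotypes overlapped in both states. Differentiated cells were at 41.9% of the undifferentiated signal in D1D2KO cells and at 46.6% in WT cells (log2 -1.25 ± 0.10 and -1.10 ± 0.10, limma, adjusted p = 2.35e-08 and 1.77e-07). Between genotypes the difference was -0.14 (95% interval -0.36 to 0.07) in differentiated and 0.01 (-0.20 to 0.22) in undifferentiated cells (adjusted p = 0.342 and 0.957).

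Ppp1r3c encodes a subunit that brings protein phosphatase 1 to glycogen, where the phosphatase activates the synthase and turns off phosphorylase. Its signals were 9.43, 9.39 and 8.89 in D1D2KO differentiated cells, against 9.06, 8.66 and 9.23 in WT differentiated cells. Undifferentiated cells had 6.76, 6.79 and 6.57 in D1D2KO, against 6.69, 6.90 and 6.80 in WT. The states were far apart and the genotypes overlapped within each. The rise was 5.78-fold in D1D2KO cells and 4.54-fold in WT cells (limma, adjusted p = 3.24e-10 and 3.11e-09), and the D1D2KO minus WT difference was 0.26 ± 0.14 in differentiated and -0.09 ± 0.14 in undifferentiated cells (adjusted p = 0.235 and 0.7).

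**Figure D2:**
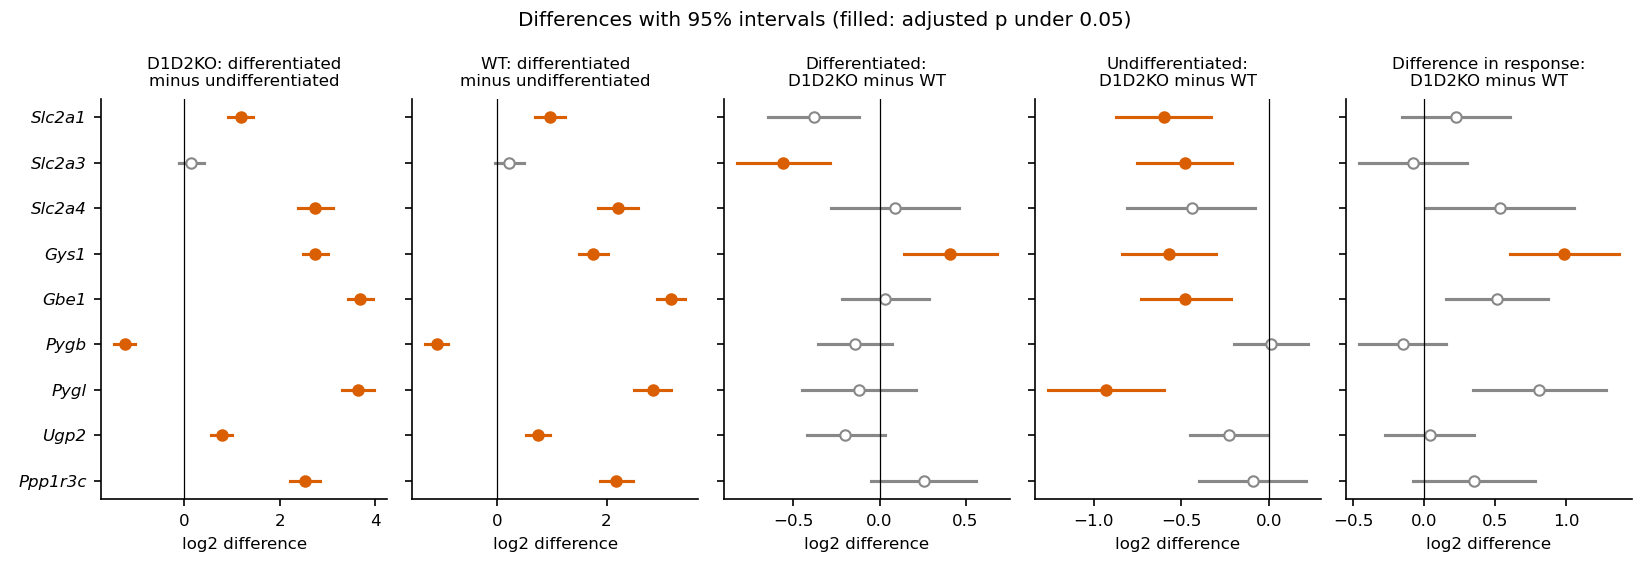
Log2 differences (x axis, with its own range in each panel) of the 9 genes (rows) with 95% intervals in the 5 comparisons; filled orange points had an adjusted p under 0.05. The first 2 panels show 8 filled points each, the panel of differentiated genotypes 2, the panel of undifferentiated genotypes 5 and the panel of the difference in response 1, Gys1.

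Before differentiation, the D1D2KO cultures had less of several of these transcripts. Pygl, Slc2a1, Gys1, Gbe1 and Slc2a3 fell relative to WT, Slc2a4, Ugp2 and Ppp1r3c had negative differences that did not pass, and Pygb stood at 0.01. Thus 0 of 9 genes rose and 5 fell, where 4.40% of all genes rose and 3.62% fell, and the median difference was -0.48 against 0.018 over all genes. The genotypes did not overlap in 6 of the 9 genes, beside 7837 of all 19938 genes. Of the genes that passed in this comparison 54.9% were higher in D1D2KO cells as deposited, 44.7% with each array centred on its median and 38.4% after quantile normalization. With only genes above the median signal entered, the share was 23.8%, and the median difference over those genes was -0.076. Pygl passed without any 1 sample (adjusted p 0.000312 to 0.0202), but the other 4 calls depended on single arrays. Slc2a3 and Gbe1 missed the threshold without WT undifferentiated replicate 1 (adjusted p = 0.0957 and 0.0542) or 2 (0.128 and 0.147), and without D1D2KO undifferentiated replicate 1 (0.0825 and 0.0563), 2 (0.0614 and 0.0752) or 3 (0.111 and 0.0944). Gys1 missed it without WT undifferentiated replicates 1 or 2 (0.0559 and 0.0811) or D1D2KO undifferentiated replicates 1 or 3 (0.0593 and 0.0843), and Slc2a1 without WT undifferentiated replicate 2 or D1D2KO undifferentiated replicate 3 (0.0669 and 0.0714). All 4 kept a negative difference in each of these fits. Of the other 55 genes of the pathway 3 rose and 3 fell, with a median of 0.00. Among the 10 other sugar transporters 2 rose and 0 fell, with a median of 0.21. The liver and islet transporter Slc2a2 (0.35, limma, adjusted p = 0.0428) missed the threshold without any 1 of 5 samples, and Slc2a6 without any 1 of 9. With each array centred on its median, and after quantile normalization, 0 of these transporters passed.

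Genes known to be induced by low oxygen moved beside the set in the undifferentiated cultures. Of 12 such genes outside the set, 10 fell in D1D2KO undifferentiated cells and 0 rose, where 3.62% of all genes fell, with a median log2 difference of -0.46. Their mean log2 signal was 7.77 to 8.01 in D1D2KO and 8.45 to 8.54 in WT undifferentiated samples. Without 1 sample 7 to 10 of the 12 passed, and after quantile normalization 7, the calls of Ndrg1, P4ha1 and Egln1 being lost there. The prolyl hydroxylase Egln3 (-1.47), the mitophagy receptor Bnip3 (-1.25), the carbonic anhydrase Car9 (-0.88) and the kinase Pdk1 (-0.75) differed most. With differentiation 12 of 12 rose in D1D2KO cells and 11 of 12 in WT cells, where 15.4% and 14.7% of all genes rose. Their mean signal was then 9.47 to 9.62 in D1D2KO and 9.54 to 9.75 in WT differentiated samples. Between these 2 groups, Car9 (-0.52) and Ndrg1 (-0.37) were lower in D1D2KO cells and 0 of the 12 were higher, where 7.42% of all genes fell. The Ndrg1 call ended without any 1 of 3 samples. Of 11 adipocyte markers, Fabp4 (-1.20) and Adipoq (-0.97) were lower in D1D2KO than in WT undifferentiated cells. Adipoq was near the arrays' lower quartiles in the D1D2KO undifferentiated samples (4.11, 4.59 and 4.41). The other 9 markers did not pass, and the median over the 11 was -0.06, with 4 of them above 0. The part of either group in the lower Pygl, Slc2a1, Gys1, Gbe1 and Slc2a3 signals was not tested.

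After differentiation the D1D2KO and WT cultures were close in this set. Gys1 was higher in D1D2KO cells, Slc2a3 was lower, and the other 7 genes did not pass, with differences between -0.38 and 0.26. This is 1 of 9 genes up, where 6.25% of all genes rose, and 1 of 9 down, where 7.42% fell, both close to the shares over all genes. Gys1 was at 133% of WT, a log2 difference of 0.41 ± 0.13 (limma, adjusted p = 0.0425). That call was lost without WT undifferentiated replicate 1 (0.0557), D1D2KO undifferentiated replicate 1 (0.0529), WT differentiated replicate 2 (difference 0.29, 0.187), D1D2KO differentiated replicate 1 (0.32, 0.143) or D1D2KO differentiated replicate 2 (0.38, 0.102), while the lower Slc2a3 passed in all 12 such fits (differences -0.71 to -0.43). In the same comparison 7 of 11 adipocyte markers rose and 5 of 10 fibroblast markers fell in D1D2KO cells. Both counts depended on single arrays: 1 adipocyte marker rose and 3 fibroblast markers fell without WT differentiated replicate 2, and over all 12 such fits 1 to 7 rose and 3 to 4 fell. The samples still differed, with mean adipocyte marker signals of 11.08 to 11.30 in D1D2KO and 10.78 to 10.96 in WT differentiated samples. Macrophage markers averaged 7.92 to 8.04 in D1D2KO and 8.09 to 8.31 in WT differentiated samples, and neural markers 5.33 to 5.41 in D1D2KO, against 5.31 to 5.43 in WT differentiated samples. The part of these markers in the Gys1 and Slc2a3 differences was not tested.

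**Figure D3:**
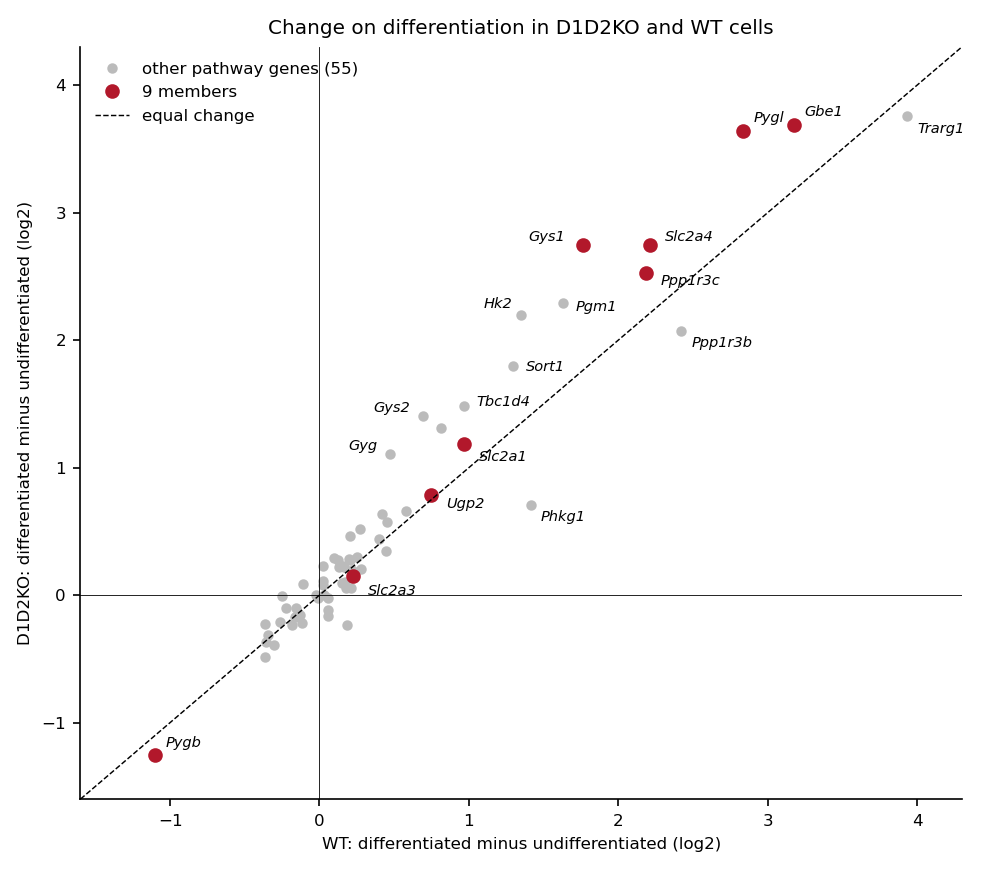
Log2 change with differentiation in D1D2KO cells (y axis) against that in WT cells (x axis) for the 9 genes (red) and the other 55 measured genes of glucose and glycogen handling (grey), with a dashed line at equal change. Gys1 (2.75 in D1D2KO, 1.76 in WT) and Pygl (3.64 and 2.84) lie above the line, Pygb sits alone at the lower left, and most grey points lie near 0.

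The other genes of the pathway were taken from 5 lists. Of 55 measured genes, 22 rose and 5 fell with differentiation in D1D2KO cells and 17 rose and 7 fell in WT cells, with median differences of 0.20 and 0.15. Over all genes 15.4% rose and 21.2% fell in D1D2KO cells, and 14.7% rose and 19.4% fell in WT cells. Among glucose-phosphorylating and glucose 6-phosphate genes, Hk2, the insulin-responsive hexokinase, rose by 2.20 on the log2 scale in D1D2KO cells and 1.35 in WT cells, while Hk1, the hexokinase of most tissues, differed by -0.02 and -0.01 and did not pass. Pgm1, a phosphoglucomutase that links glucose 6-phosphate with glycogen, rose by 2.29 in D1D2KO cells and 1.63 in WT cells. Its difference in response of 0.66 passed (limma, adjusted p = 0.0158), but not without WT undifferentiated replicate 2 (0.62, adjusted p = 0.0524). Pgm1 was also lower in D1D2KO than in WT undifferentiated cells (-0.48, adjusted p = 0.00638).

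Glycogenin (Gyg), which primes new glycogen chains, also rose more in D1D2KO than in WT cells. Its log2 signals were 9.45, 9.48 and 9.46 in D1D2KO differentiated cells, against 8.66, 8.88 and 8.90 in WT differentiated cells. Undifferentiated D1D2KO cells had 8.34, 8.46 and 8.26, against 8.34, 8.29 and 8.39 in undifferentiated WT cells. The genotypes overlapped before differentiation and were separate after it, D1D2KO being higher by 0.65 ± 0.08 (limma, adjusted p = 0.000108), and the difference in response was 0.63 ± 0.12 (adjusted p = 0.0122). Gys2, the liver glycogen synthase, was dim, with signals from 3.43 to 3.59 in the 6 undifferentiated samples, below the lower quartile of every array. In differentiated cells Gys2 had 5.28, 5.06 and 4.45 in D1D2KO and 4.18, 3.77 and 4.47 in WT, a difference of 0.79 (adjusted p = 0.00802) between groups that overlap. Over the 7 other glycogen enzymes, 4 rose and 0 fell in D1D2KO against WT differentiated cells, where 6.25% of all genes rose. Without 1 sample this count ran from 2 to 4, and it was 2 without WT differentiated replicate 2 or D1D2KO differentiated replicate 2. It was also 2 without both low differentiated arrays and with only the groups compared. Quantile normalization and array weights each gave 3.

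Among 16 kinase, phosphatase and targeting subunits, 7 rose and 0 fell in D1D2KO cells, where 15.4% of all genes rose and 21.2% fell. In WT cells 3 rose and 1 fell, where 14.7% of all genes rose and 19.4% fell, so the WT rises were close to the share over all genes. The D1D2KO count of rises ran from 3 to 8 without 1 sample. For the difference in response 0 of the 16 passed, with a median of 0.07. Ppp1r3b, another subunit that targets protein phosphatase 1 to glycogen, rose by 2.07 in D1D2KO cells and 2.42 in WT cells, which places it beside Ppp1r3c in size of change. Phkg1, the muscle form of the catalytic subunit of phosphorylase kinase, rose by 0.71 in D1D2KO cells and 1.41 in WT cells. The WT differentiated signals were spread, at 5.65, 6.44 and 5.21, and the undifferentiated signals, 4.19 to 4.69, were near the arrays' lower quartiles. In D1D2KO cells the Phkg1 call was lost without D1D2KO undifferentiated replicate 3 (0.59, adjusted p = 0.0562). The phosphatase catalytic subunit Ppp1cc and the kinase Gsk3b, the brightest of the list that passed in no comparison, did not pass.

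For the machinery that stores and moves GLUT4, 5 of 12 measured genes rose and 2 fell in D1D2KO cells and 4 rose and 1 fell in WT cells, beside the same shares over all genes (15.4% up and 21.2% down in D1D2KO cells, 14.7% up and 19.4% down in WT cells). Trarg1, a protein of GLUT4 vesicles, rose by 3.76 in D1D2KO cells and 3.94 in WT cells, the largest change of the whole pathway in each genotype. Sort1, the sorting receptor of those vesicles, rose by 1.79 in D1D2KO and 1.30 in WT cells and was higher by 0.48 in D1D2KO than in WT differentiated cells (limma, adjusted p = 0.00716). Tbc1d4, the Rab regulator through which insulin releases GLUT4, rose by 1.48 in D1D2KO and 0.97 in WT cells. Rab10 and Snap23, a Rab and a membrane fusion protein of GLUT4 delivery, passed in no comparison. Of 10 other sugar transporters 2 rose and 0 fell in D1D2KO cells and 2 rose and 1 fell in WT cells, close to the shares over all genes. They were Slc2a8, which rose by 0.35 in D1D2KO and 0.44 in WT cells, and Slc2a12, which rose by 0.44 in D1D2KO and 0.40 in WT cells.

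Replicates of a group also moved together across the set. D1D2KO differentiated replicate 3 was the lowest of its group in 9 of 9 genes, with a median deviation from the group mean of -0.25 on the log2 scale, and replicate 1 was highest in 7. WT differentiated replicate 2 was lowest in 8 of 9 genes (median -0.29) and replicate 3 highest in 7 (median 0.25). Pearson correlations of these deviations over the 12 samples ranged from 0.142 to 0.885 among the 36 pairs of genes, all above 0. The genes of 1 array share its RNA and its scan. These 2 low arrays also had the smallest of limma's array weights, 0.37 and 0.41. With both left out, a choice made after seeing the data, Slc2a3 passed with differentiation as well (0.28 in D1D2KO cells, adjusted p = 0.0156, and 0.38 in WT cells, adjusted p = 0.00269), which makes 9 of 9 genes in each genotype, and the higher Gys1 in D1D2KO differentiated cells missed the threshold (0.41, adjusted p = 0.0594).

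**Figure D4:**
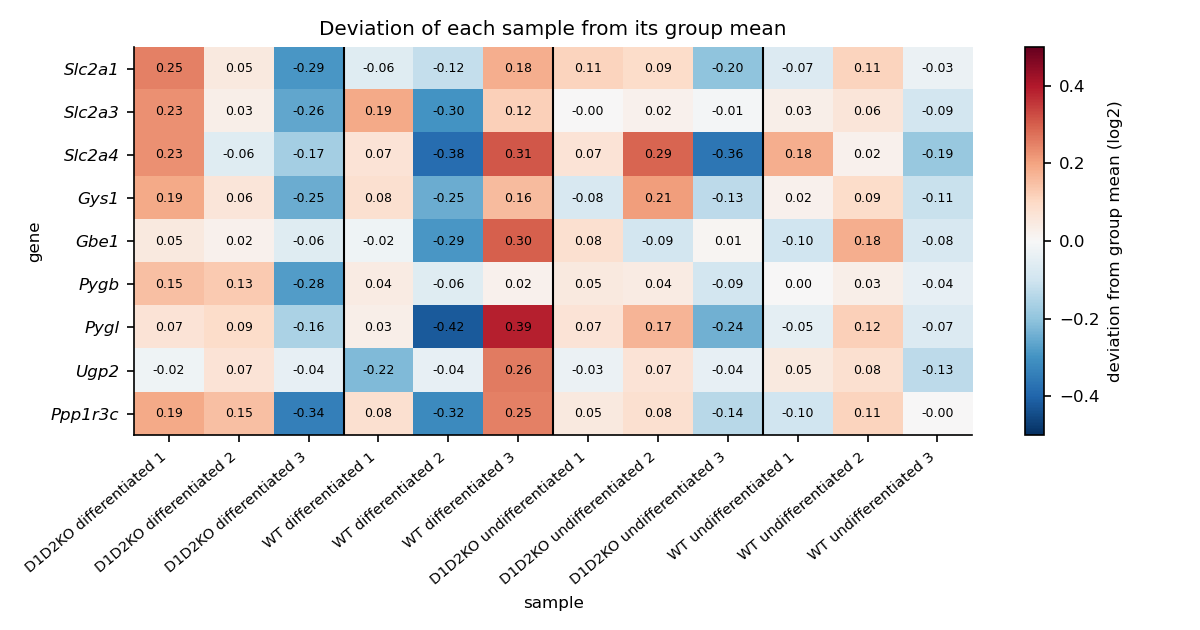
Deviation of each sample from its group mean on the log2 scale (colour and printed number) for the 9 genes (rows) in the 12 samples (columns), with black lines between groups. D1D2KO differentiated replicate 3 is blue in every row, down to -0.34, and WT differentiated replicates 2 and 3 lie on opposite sides of 0 in 9 of 9 rows.

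Over the 12 samples the 7 genes that rose with differentiation correlated with each other at Pearson's r from 0.89 to 0.992 (21 pairs). Pygb correlated with those 7 at -0.969 to -0.806, and Slc2a3 with the other 8 at -0.175 to 0.667. The samples fall into 2 states, so these values describe mostly the difference between the states. The genes whose signals were most like each gene's, by the highest Pearson's r over the 12 samples, were Map3k1 (0.9927) and Rpia (0.9918) for Slc2a4, Mrpl24 (0.9926) and Pkm (0.9910) for Slc2a1, and Lmbr1 (0.9483) and Sdc4 (0.9288) for Slc2a3. For the glycogen-building enzymes they were Mpc1 (0.9989) and Rbp4 (0.9985) for Gbe1, Ero1a (0.9968) and Immt (0.9963) for Gys1, and Park7 (0.9845) and Psma6 (0.9760) for Ugp2. Pygl was closest to Aldoa (0.9958) and Ankrd37 (0.9955), Pygb to Ptprq (0.9962) and Myh10 (0.9951), and Ppp1r3c to Aldh6a1 (0.9979) and Idh1 (0.9978). Slc2a3 thus had the least close neighbours of the set. Aldoa and Pkm encode glycolytic enzymes, and Mpc1 a subunit of the mitochondrial pyruvate carrier.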

How the data were processed

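Expression was measured on a single-colour mouse array in 12 fibroblast samples, grouped by their titles. The deposited values, between 1.15 and 14.17, were read as log2 signals that the authors had already normalized. The log base is inferred from the values, and the authors' summarisation, normalization, genome build and detection calls are not given in the sources used here. A dim signal can therefore not be told from background. Of 35556 probe sets, 21789 matched 1 gene and were used, 1621 matched several and 12146 none. Where several probe sets stood for a gene (999 genes), the brightest on average was kept, giving 19938 genes.

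All samples entered 1 model of 4 group means in limma 3.58.1 (lmFit and eBayes, R 4.3.3), with 5 two-sided contrasts and Benjamini-Hochberg adjustment over all genes. Replicates are called biological by the labels, without naming their embryos, and the p-values reflect only how far these cultures differ. On simulated data with changes of 0.5 log2, the fit recovered 88% for D1D2KO against WT in undifferentiated cells, 87% in differentiated cells and 25% for the difference in response, and with changes of 1 it recovered 100%, 100% and 99%. A missed difference in response of 0.5 therefore says little. The simulated noise was independent between genes and arrays and only a small part of the genes was changed. The real arrays had deviations shared across genes, so the recovered shares may not hold for them.

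The set and all gene lists were chosen with earlier results of these data known, the promoter motifs too. Named genes were the 9 members, Dgat1, Dgat2, up to 4 called genes of largest change and up to 2 bright uncalled genes per pathway list, up to 4 called genes per marker list, and the 2 best correlated genes per member. Of the other pathway genes, 55 were analysed. Replicate numbers were checked by the correlation of residuals between arrays of equal number. It exceeded 0.1 for all 3 pairs only between D1D2KO differentiated and D1D2KO undifferentiated cells (0.101, 0.11 and 0.176). The main fit paired no samples. The replicate block, run only as an alternative, grouped arrays of equal number. It did so within each genotype for the differentiation contrasts and the difference in response, and within each state for the genotype contrasts. The alternatives were median centring, quantile normalization, bright genes only, the mean of probe sets, only the groups compared, a trended and robust fit, array weights, a replicate block, each sample left out, and both low differentiated arrays left out, the last added after seeing the data.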

Additional observations from a re-analysis of the deposited data

Results flagged for a closer look

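For 4 genes of glycogen handling or of DGAT itself the change with differentiation differed between D1D2KO and WT cells by a test of that difference (limma, Benjamini-Hochberg adjusted p under 0.05). Gys1 rose more in D1D2KO cells, by 0.98 on the log2 scale, Pgm1 by 0.66 and Gyg by 0.63, while Dgat2 rose less, with a difference of -1.20. Among the hypoxia-inducible genes Egln3 rose more in D1D2KO cells by 1.82, Bnip3 by 1.54 and Vegfa by 0.53. The Vegfa call ended without any 1 of 6 samples (adjusted p 0.0508 to 0.0766) and in the fit with the replicate block. Among adipocyte markers Fabp4 rose more in D1D2KO cells by 1.45, Adipoq by 1.38 and Retn by 0.62, and the Retn call ended without any 1 of 10 samples (adjusted p 0.0638 to 0.141). The Adipoq signals of D1D2KO undifferentiated cells, 4.11, 4.59 and 4.41, were near the arrays' lower quartiles. Egln3, Bnip3, Fabp4 and Adipoq were all lower in D1D2KO than in WT undifferentiated cells.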

How the results depend on the processing

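No difference of the set that passed was reversed under the alternatives run, and the differentiation counts held: 8 of 9 genes in both genotypes, 9 in WT cells without WT differentiated replicate 2, and 9 in both genotypes without both low differentiated arrays. The fit with the replicate block left all 45 calls of the 9 genes as they were, and moved none of 15 counts by over 1.5 times (265 genes for the difference in response, against 291). Beside the set it left 6 of 7 adipocyte and 3 of 5 fibroblast marker calls between differentiated genotypes, and 8 of 10 hypoxia-inducible genes between undifferentiated ones. In D1D2KO against WT undifferentiated cells, 5 genes of the set, 6 pathway genes and 1600 of all genes passed. Quantile normalization gave 3, 3 and 834, bright genes only gave 881 of all genes, and the groups compared alone gave 10 pathway genes and 2597 of all. Array weights gave 14 pathway genes and 4224 of all, and leaving out both low arrays 12 and 2718. Without 1 sample these counts ran from 1 to 5, 1 to 10 and 339 to 1967. Between differentiated genotypes 2, 10 and 2726 genes passed. The groups compared alone gave 1, 4 and 1184, and without both low arrays 1 gene of the set and 1207 of all passed. Without 1 sample the counts ran from 1 to 2, 4 to 11 and 1344 to 2822. For the difference in response 1, 2 and 291 genes passed. Bright genes only gave 2 genes of the set and 537 of all, the trended and robust fit 450 of all, array weights 2, 7 and 604, and leaving out both low arrays 6 pathway genes. Without 1 sample the counts ran from 1 to 3, 1 to 7 and 159 to 449. Single calls that changed were Slc2a3 and Gbe1 before differentiation (quantile, adjusted p = 0.0791 and 0.066), Gys1 after it (groups compared alone, 0.0869), Slc2a1 after it (bright genes 0.0344, trended 0.0381, weights 0.0372), Slc2a4 before it (weights, 0.0478), and the difference in response of Pygl (bright genes 0.0403, weights 0.0470) and of Gbe1 (without WT differentiated replicate 3, 0.66, adjusted p = 0.0294). Fewer genes or samples enter the bright-gene and left-out fits. For the other changes the cause was not tested. With 3 arrays a group, replicate number limits the precision, and no detection calls were used.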
